A study of Mus musculus with 26 samples.

Results

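The 10 contractile genes of smooth muscle and myofibroblasts (*Acta2*, *Tagln*, *Cnn1*, *Myh11*, *Actg2*, *Myl9*, *Tpm1*, *Tpm2*, *Lmod1* and *Smtn*) were followed by RNA-seq in mouse embryonic fibroblasts (MEFs), heart and liver. They were taken by gene symbol, and each matched 1 of the 52609 gene rows of the expression table, so that all 10 members were found. Smooth muscle contracts when myosin pulls on filaments of smooth muscle actin. Myofibroblasts are fibroblasts that build the same filaments as stress fibres and pull on their surroundings, as in wound repair. The transcription factor SRF, bound to DNA at a motif called the CArG box and assisted by myocardin or the MRTF coactivators, is the best known activator of these genes, and TGF-beta is the best known signal for them in fibroblasts.

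The series compares embryos and cells without the DNA methyltransferase *Dnmt3a* or *Dnmt3b*, and the 10 RNA-seq libraries hold 1 library for each of 10 conditions. Of these, 4 libraries are MEFs from E14.5 embryos at passage p1 (strain label C57BL6, male), labelled WT or *Dnmt3a* KO and cultured with DMSO or with GSK126, an inhibitor of the histone methyltransferase *Ezh2*. A further 2 libraries are female 2i-MEFs of an F1 background (129X1/SvJ and MSM/Ms), which are fibroblasts grown out of E14.5 chimeric embryos made with *Dnmt3a* KO or *Dnmt3b* KO embryonic stem cells kept in 2i medium, after host cells had been removed by drug selection and sorting. The remaining 4 libraries are E14.5 heart and liver of male embryos (strain label C57BL6) labelled WT or *Dnmt3a* KO, with both tissues of a genotype carrying the same embryo number. These MEFs came from crosses of mice heterozygous for a *Dnmt3a* knockout allele. RNA of WT 2i-MEFs was not analysed here, nor were the 16 methylation samples.

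With 1 library per condition there is no spread between replicates, no difference was tested, and neighbouring values in an order of levels cannot be told apart by replicate error. Values are FPKM, fragments mapped to a gene, divided by transcript length and by sequencing depth. A comparison is the log2 ratio of FPKM + 1 of 2 libraries, and a gene was counted as different when this ratio reached 2-fold. Estimated depth lay between 9168350 reads (*Dnmt3b* KO 2i-MEFs) and 26091550 reads (WT liver). In bulk tissue, fewer cells of a type and less RNA per cell cannot be told apart. *Dnmt3a* itself went with the labels in 2i-MEFs (4.21 FPKM where *Dnmt3a* and 23.9 FPKM where *Dnmt3b* was deleted) and in liver (53.5 FPKM for WT, 12.7 FPKM for KO). It went against them in MEFs, with 26.1 FPKM (DMSO) and 19.3 FPKM (GSK126) in WT and 85.7 and 84.5 FPKM in KO, and in heart, where WT had 55.0 FPKM and KO 125 FPKM. Heart and liver with the same embryo numbers thus went opposite ways. A knockout allele can still give reads outside its deleted part, so the level alone does not settle a genotype. Whether a label or a column was exchanged was not tested, and these libraries are named by their labels.

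Stretches of the members' promoters that match the motif read by SRF are shown, since these genes are known as SRF targets. RefSeq promoter windows (GRCm38.p6, from 250 bases before to 50 bases after the start, 300 bases in all) were matched for 7 of the 10 members, namely *Acta2*, *Cnn1*, *Myl9*, *Tpm1*, *Tpm2*, *Lmod1* and *Smtn*, while *Tagln*, *Myh11* and *Actg2* had no entry. The CArG box was searched by its consensus of 10 bases, CC, then 6 bases that are each A or T, then GG, which reads as the same class on both strands. Matches are in capitals, each with up to 25 flanking bases on either side, 5′ to 3′ on the strand of the gene. An exact match was found for *Myl9* alone of the 7, beginning at position -161 from the start (chr2:156775278-156775337, plus strand), and 1.63% of the 32851 windows of the table hold one.
Myl9, exact match: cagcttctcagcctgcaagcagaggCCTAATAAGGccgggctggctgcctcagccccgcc
With at most 1 mismatch to the consensus, 4 of the 7 members had a match, against 21.1% of all windows. *Acta2* had a pair, at -84 (chr19:34255423-34255482, minus strand) and at -34 (chr19:34255373-34255432, minus strand). *Myl9* had another at -99 (chr2:156775340-156775399, plus strand).
Acta2 at -84: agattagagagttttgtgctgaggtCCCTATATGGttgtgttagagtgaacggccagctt
Acta2 at -34: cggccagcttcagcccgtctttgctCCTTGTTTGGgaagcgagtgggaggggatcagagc
Myl9 at -99: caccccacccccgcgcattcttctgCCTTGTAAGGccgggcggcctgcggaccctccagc
*Tpm1* had a pair at -221 (chr9:67049400-67049459, minus strand) and at -80 (chr9:67049259-67049318, minus strand), and *Lmod1* a pair at -189 (chr1:135324599-135324658, plus strand) and at -164 (chr1:135324624-135324683, plus strand).
Tpm1 at -221: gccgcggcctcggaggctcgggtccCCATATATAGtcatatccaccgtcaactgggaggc
Tpm1 at -80: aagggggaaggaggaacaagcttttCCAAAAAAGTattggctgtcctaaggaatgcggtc
Lmod1 at -189: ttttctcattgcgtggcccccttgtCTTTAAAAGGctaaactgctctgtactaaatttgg
Lmod1 at -164: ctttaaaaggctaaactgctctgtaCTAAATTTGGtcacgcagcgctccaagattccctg
*Cnn1*, *Tpm2* and *Smtn* had no such match in this window. Each of the 7 had 1 window, whose start need not be the outer end of the gene. The window of *Smtn* (chr11:3539243-3539542) lies inside the gene, which has 10 annotated transcripts. DNMT3A methylates CpG sites, and the CpG dinucleotides of the same windows were counted too. They ranged from 6 in *Acta2* and in *Cnn1* over 7 in *Lmod1*, 11 in *Smtn* and 20 in *Myl9* and in *Tpm2* to 27 in *Tpm1*, where the median of all windows was 7. A match is a description of the letters and not evidence of binding.

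*Acta2* (smooth muscle alpha-actin, chr19:34241090-34255336, minus strand) is the usual marker of myofibroblasts. It was at 1304 FPKM in WT MEFs with DMSO, 1314 in WT MEFs with GSK126, 1771 in MEFs labelled *Dnmt3a* KO with DMSO and 1146 in the same MEFs with GSK126. In 2i-MEFs *Acta2* was at 1860.1 FPKM (*Dnmt3a* KO) and 2825 FPKM (*Dnmt3b* KO), in heart at 1176 (WT) and 876 (KO), and in liver at 26.9 (WT) and 15.8 (KO). Both 2i-MEF libraries were thus above all 4 MEF libraries, and *Acta2* ranked 18 among all genes of the *Dnmt3b* KO library. *Actg2* (smooth muscle gamma-actin, chr6:83512905-83536265, minus strand) is the actin of visceral smooth muscle. It was at 78.7, 104, 137 and 105 FPKM in the 4 MEF libraries, in the order just given. It reached 114 and 227 FPKM in *Dnmt3a* KO and *Dnmt3b* KO 2i-MEFs, and only 8.41 and 10.9 FPKM in WT and KO heart and 3.42 and 4.63 FPKM in WT and KO liver. The lowest fibroblast value of *Actg2* was 7.20 times the highest tissue value.

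Among the regulators of actin filaments, *Tagln* (transgelin or SM22-alpha, an actin-bundling protein, chr9:45929619-45936058, minus strand) was, like *Acta2*, highest in the pair of 2i-MEF libraries. Its values were 619.5, 695, 707 and 634 FPKM in MEFs, 999 and 1410.0 FPKM in *Dnmt3a* KO and *Dnmt3b* KO 2i-MEFs, 264 and 224 FPKM in WT and KO heart, and 12.9 and 7.58 FPKM in WT and KO liver. By annotation, 53.3% of the 75-base windows of *Tagln* transcripts also lie in transcripts of other genes, most of them in the antisense gene *AC122273.2*, whose row ran from 5.09 FPKM in KO liver to 1273 FPKM in *Dnmt3b* KO 2i-MEFs. The library kit keeps strand, but whether the counting used it is not given in the sources used here, so the levels of *Tagln* and of this row are uncertain. *Cnn1* (calponin 1, an actin-binding inhibitor of myosin, chr9:22099216-22109630, plus strand) was the member with the widest range. It was at 65.2, 68.2, 128 and 73.5 FPKM in MEFs, 100.2 and 253 FPKM in 2i-MEFs, 246 and 204 FPKM in heart, and 0.172 and 0.215 FPKM in liver. The liver values of *Cnn1* rest on between 1 and 12 reads, and its highest value was 1468 times its lowest.

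Tropomyosins lie along the actin filament and gate the access of myosin. *Tpm1* (chr9:67022590-67049406, minus strand) was at 1539, 1205, 1563 and 1049 FPKM in MEFs, 1357 and 1532 FPKM in 2i-MEFs, 4843 and 4439 FPKM in heart, and 191 and 141 FPKM in liver. Its gene makes both smooth and striated muscle isoforms from 21 annotated transcripts, which the table does not separate, and its lowest heart value was above every fibroblast value. *Tpm2* (chr4:43514711-43523765, minus strand) had the opposite order, at 678, 611, 722 and 593 FPKM in MEFs, 409.9 and 621 FPKM in 2i-MEFs, 182 and 156 FPKM in heart, and 71.5 and 18.6 FPKM in liver. Every fibroblast value of *Tpm2* was above every heart value, and the livers differed more in *Tpm2* than in any other of the 10 genes.

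Of the motor, *Myl9* (smooth muscle regulatory light chain, chr2:156775420-156781658, plus strand) was high and *Myh11* (smooth muscle myosin heavy chain, chr16:14194527-14291408, minus strand) low in most libraries. *Myl9* was at 499, 535, 573 and 521 FPKM in MEFs, 979.7 and 1094 FPKM in 2i-MEFs, 2242 and 1996 FPKM in heart, and 87.7 and 59.4 FPKM in liver. *Myh11*, the marker most specific for mature smooth muscle, was at 2.68, 3.43, 2.27 and 1.06 FPKM in MEFs, 4.64 and 15.3 FPKM in 2i-MEFs, 1.68 and 1.25 FPKM in heart, and 0.682 and 0.586 FPKM in liver. *Myh11* ranked 12119 among all genes of WT heart and 6008 in *Dnmt3b* KO 2i-MEFs, its best rank of the 10 libraries.

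*Lmod1* (leiomodin 1, which nucleates actin filaments in smooth muscle, chr1:135324807-135368065, plus strand) was at 17.3, 18.7, 23.5 and 15.8 FPKM in MEFs and 14.2 and 29.3 FPKM in 2i-MEFs, but at 0.830 and 1.0201 FPKM in heart and 0.132 and 0.0725 FPKM in liver. The liver values of *Lmod1* rest on 13 and 7 reads, and those of heart on 59 reads each. *Smtn* (smoothelin, a marker of contractile smooth muscle, chr11:3517523-3540612, minus strand) had the flattest profile. It was at 38.7, 39.0, 73.1 and 42.9 FPKM in MEFs, 53.0 and 33.4 FPKM in 2i-MEFs, 39.4 and 41.9 FPKM in heart, and 10.95 and 7.64 FPKM in liver. Of the 75-base windows of *Smtn*, 6.57% also lie in transcripts of *Gm11946*, an antisense neighbour.

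**Figure D1:**
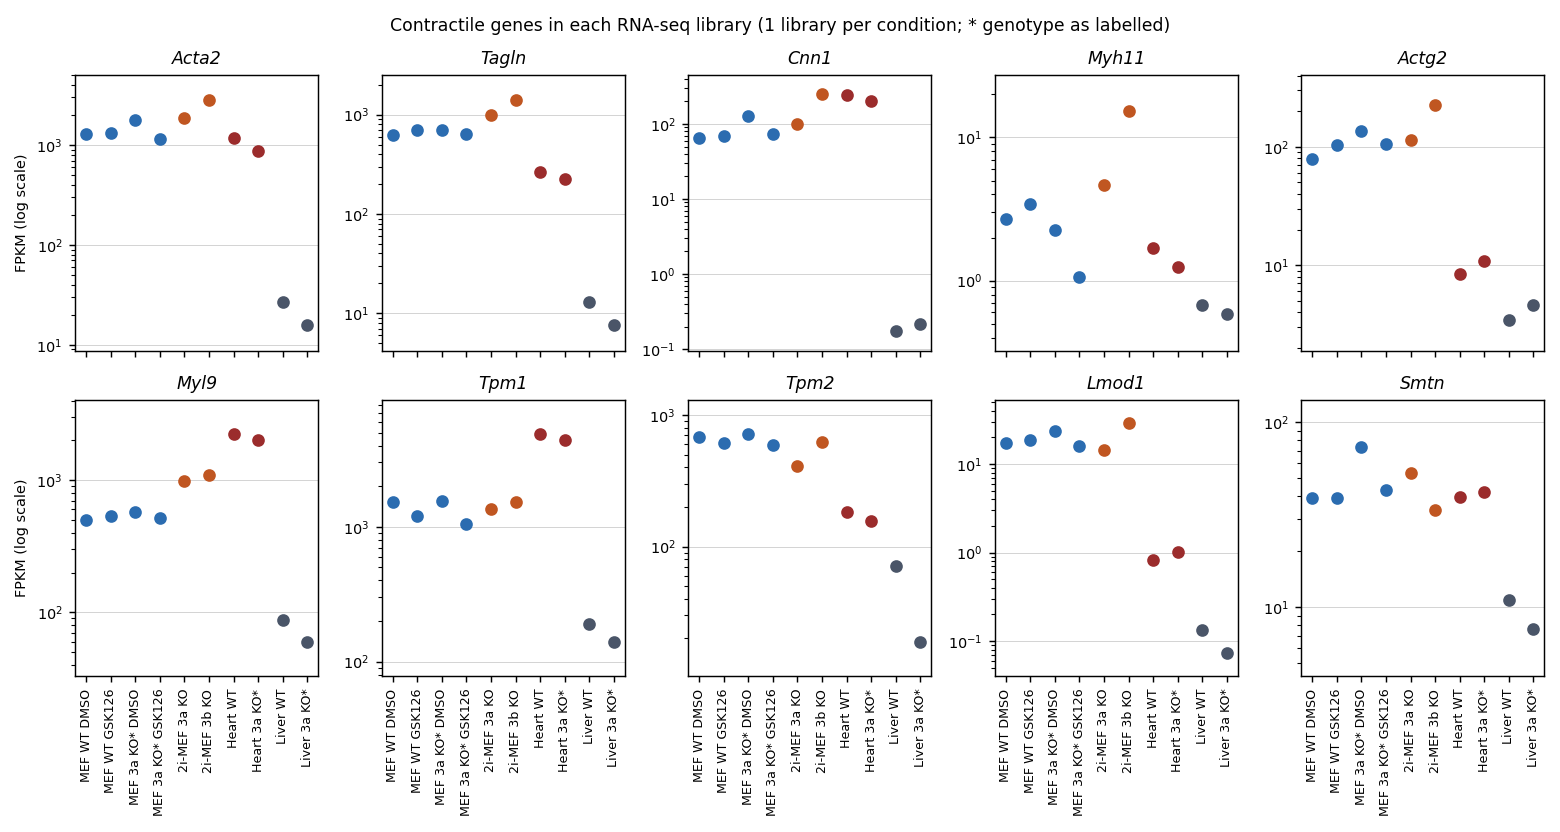
FPKM (vertical axis, log scale) of each of the 10 contractile genes in the 10 RNA-seq libraries (horizontal axis; blue MEFs, orange 2i-MEFs, red heart, grey liver); each point is 1 library and there are no error bars. For 8 of the 10 genes, that is all but *Actg2* and *Cnn1*, the liver labelled KO is the lowest library, and *Cnn1* goes from 246 FPKM in WT heart to 0.172 FPKM in WT liver.

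Within each library *Acta2* or *Tpm1* had the highest level of the members and *Myh11* or *Lmod1* the lowest, and the order between them differed between fibroblasts, heart and liver. The members' summed FPKM took between 0.592% and 1.15% of all FPKM in the 6 fibroblast libraries, 1.019% and 0.908% in WT and KO heart, and 0.0422% and 0.0255% in WT and KO liver. All 4 libraries of *Actg2*, *Lmod1*, *Tagln* and *Tpm2* from tissue were below all 6 fibroblast libraries. That is 4 of 10 members, where 17.8% of the 16915 genes with at least 1 FPKM in 1 of the 10 libraries had the same order. No member had all fibroblast libraries below all tissue libraries, where 15.4% of genes did. Without WT liver, left out after the values were seen, the count was again 4, where 19.3% of 16784 genes had this order.

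The members' share of their protein families differed between fibroblasts, heart and liver. Among the 6 actins *Acta2* made up between 15.7% and 20.6% of the summed FPKM in MEFs, and 28.0% and 30.4% in *Dnmt3a* KO and *Dnmt3b* KO 2i-MEFs. In heart *Acta2* held 8.12% (WT) and 7.23% (KO), beside 76.3% and 76.1% for the cardiac actin *Actc1*. In liver *Acta2* held 0.776% and 0.489%, beside 81.3% and 77.8% for the non-muscle actin *Actb*. *Actg2* never passed 2.44% of the actins. *Acta2* is thus abundant in embryonic heart in level and a minor actin there in share.

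Among the transgelins, *Tagln* held between 69.1% and 75.9% in MEFs and 79.1% and 80.3% in 2i-MEFs, against 45.2% and 39.3% in heart and 4.42% and 3.08% in liver, where *Tagln2* held the rest. Among the calponins, *Cnn1* held 8.55%, 9.41%, 13.8% and 9.21% in the 4 MEF libraries, and 9.71% and 23.2% in *Dnmt3a* KO and *Dnmt3b* KO 2i-MEFs. It held 36.5% and 34.3% in heart and 0.112% and 0.167% in liver, and *Cnn2* and *Cnn3* held the rest. *Tpm1* held between 46.3% and 54.4% of the tropomyosins in fibroblasts, 89.1% and 88.5% in heart, and 25.01% and 24.4% in liver, where *Tpm3* led with 51.4% and 60.0%. *Tpm2* held between 16.4% and 26.2% in fibroblasts, 3.34% and 3.10% in heart, and 9.36% and 3.23% in WT and KO liver.

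Among the motor and filament-end genes, *Myh11* had the lowest share of its family in fibroblasts, and *Lmod1* the lowest in heart and liver. *Myh11* held between 0.267% and 3.22% of the summed FPKM of *Myh11*, *Myh9*, *Myh10* and *Myh14* in every library. The non-muscle chains *Myh9* and *Myh10* held nearly all the rest of this sum. It leaves out the class II chains of striated muscle. Of these, *Myh7* was at 3765 and 3884 FPKM and *Myh6* at 1250 and 931 FPKM in WT and KO heart. *Myl9*, in turn, held between 39.0% and 54.6% of the summed FPKM of *Myl9*, *Myl12a* and *Myl12b* in fibroblasts. It held 78.5% in both hearts, and 19.2% and 16.2% in liver. The cardiac regulatory light chains *Myl2* (25671 and 25505 FPKM in WT and KO heart) and *Myl7* (4907 and 3930 FPKM) were not in this sum. Both were above *Myl9* in heart. *Lmod1* held between 15.3% and 32.6% of the leiomodins and tropomodulins in fibroblasts, next to *Tmod3* with 63.2% to 81.0%. In heart *Lmod1* held 0.178% and 0.205%, where the tropomodulin *Tmod1* of striated muscle and red cells held 74.4% and 66.3% and the cardiac leiomodin *Lmod2* held 12.7% and 17.3%. *Smtn* held 98.9% or more of the smoothelins in all fibroblasts, and 28.7% and 31.7% in heart, where *Smtnl2* led. These shares are of FPKM and describe relative RNA levels per length, not protein.

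**Figure D2:**
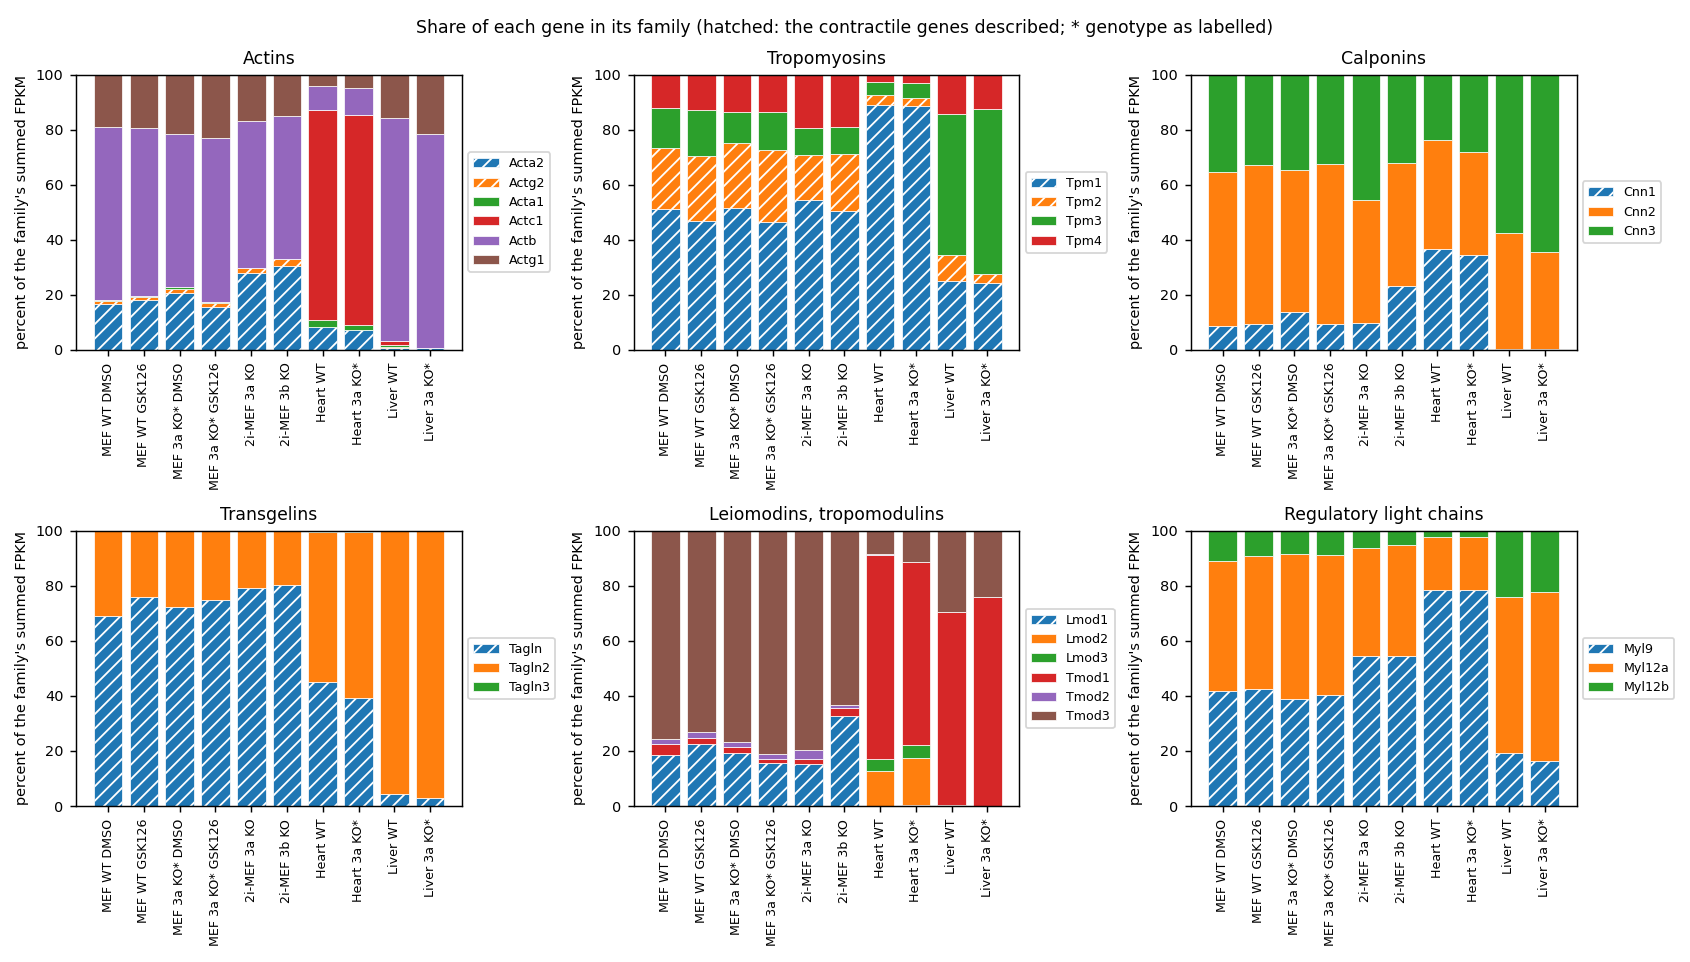
Share of each gene in the summed FPKM of its family (vertical axis, percent) in the 10 libraries (horizontal axis), as stacked bars for 6 families, with the contractile genes hatched; each bar is 1 library and sums to 100. *Acta2* reaches 30.4% of the actins in *Dnmt3b* KO 2i-MEFs while *Actc1* takes 76.3% in WT heart, and the share of *Cnn1* is largest in heart. The regulatory light chains shown leave out the cardiac *Myl2* and *Myl7*.

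The tissue profile of the members was set beside markers of the cells that could carry it. The 16 cardiac and skeletal muscle markers summed to 60154 and 56387 FPKM in WT and KO heart, with 13 and 14 of 16 at 1 FPKM or more, and to between 25.3 and 68.8 FPKM in fibroblasts. Of the 8 fibroblast markers, all 8 were above 1 FPKM in each fibroblast library, and all 8 were higher in all fibroblast than in all tissue libraries. Of the 8 pericyte and mural cell markers, 5 or 6 reached 1 FPKM in each fibroblast library, and the 8 summed to between 92.3 and 309 FPKM there, against 72.4 and 77.8 FPKM in heart. In these sums *Pdgfrb* alone was at 53.7 to 249 FPKM in fibroblasts and at 16.1 and 15.7 FPKM in heart. Of the 8, 2 were higher in all fibroblast than in all tissue libraries and 2 lower, and *Higd1b* was listed at 0 in all 6 fibroblast libraries. Endothelial markers summed to between 6.19 and 18.9 FPKM in fibroblasts and to 252 and 242 FPKM in heart. The part of each cell type in the levels was not tested.

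Heart and liver were compared directly in each genotype. In WT, 8 of 10 members were at least 2-fold higher in heart and none lower, where 20.6% of 14587 genes were higher and 21.0% lower. In the embryo labelled KO it was again 8 higher and none lower, where 23.7% of 14581 genes were higher and 20.0% lower. The median log2 ratio of the members was 3.01 in WT and 3.85 in KO, beside -0.09 and 0.00 for all genes. *Cnn1* led with a log2 ratio of 7.72 in WT, a fold whose counting interval is wide because it rests on as few as 1 read in liver (a fold of 1427, exact 95% interval from 201 to 44377). *Acta2* (43.7-fold and 55.5-fold), *Myl9* (25.6-fold and 33.6-fold), *Tpm1* (25.3-fold and 31.5-fold) and *Tagln* (20.5-fold and 29.6-fold) followed in FPKM. *Actg2* (2.46-fold and 2.36-fold) and *Smtn* (3.60-fold and 5.48-fold) were nearer, and *Tpm2* was 2.54-fold higher in WT and 8.34-fold in KO. *Lmod1* and *Myh11* were the members under the threshold on the scale of FPKM + 1, both under 2 FPKM in these tissues. In FPKM, *Lmod1* was 6.28-fold and 14.1-fold higher in heart, and *Myh11* 2.47-fold and 2.13-fold. Of the 20 other smooth muscle genes, 14 were at least 2-fold higher in WT heart and 16 in KO heart, and none lower. Of the 16 regulators, 8 were higher in WT heart and 10 in KO heart, and none lower. *Myocd*, the gene of myocardin, was the regulator with the largest log2 ratio (4.31), at 20.4 FPKM in WT heart and at 0.0800 FPKM in WT liver.

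In 2i-MEFs, the *Dnmt3b* KO library had the higher value of 9 of the 10 contractile genes, and *Smtn* had the lower. For *Myh11*, 15.3 FPKM with the *Dnmt3b* KO stood against 4.64 FPKM with the *Dnmt3a* KO, a 3.29-fold difference. *Cnn1* (253 and 100.2 FPKM) was 2.52-fold higher, *Lmod1* (29.3 and 14.2 FPKM) 2.06-fold and *Actg2* (227 and 114 FPKM) 1.99-fold higher in the *Dnmt3b* KO library. *Acta2* (1.52-fold), *Tpm2* (1.52-fold) and *Tagln* (1.41-fold) were higher by less, and *Tpm1* (1.13-fold) and *Myl9* (1.12-fold) were close to equal. *Smtn* was 1.59-fold higher in the *Dnmt3a* KO library. Counted by the log2 ratio of FPKM + 1 of *Dnmt3a* KO against *Dnmt3b* KO, 2 of 10 members, *Myh11* (-1.53) and *Cnn1* (-1.33), were at least 2-fold lower and none higher, where 3.49% of 13620 genes were lower and 5.52% higher. *Lmod1* (-0.99) and *Actg2* (-0.98) lay just inside 2-fold. The members' median was -0.60, and that of all genes 0.03.

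The genes around the contractile set differed among themselves in this pair. Of the 20 other smooth muscle genes, 2 were at least 2-fold lower in *Dnmt3a* KO, *Des* (desmin, log2 ratio -1.18) and *Jph2*, and 1 higher, *Npnt* (1.76), with a list median of -0.40. Of the 15 response genes of MRTF, YAP and TGF-beta, 12 had a lower value in *Dnmt3a* KO, led by *Ankrd1* (9.71 FPKM, against 74.99 FPKM with the *Dnmt3b* KO), and 2 reached 2-fold. None of the 16 regulators reached 2-fold in either direction, with a median of 0.06 and log2 ratios from -0.15 (*Mkl2*) to 0.51 (*Tgfbr2*): *Srf* was at 17.0 and 18.1 FPKM and *Myocd* at 1.17 and 0.777 FPKM. Nor did any of the 16 matrix genes (median 0.11, from -0.57 for *Loxl2* to 0.41 for *Sparc*), with *Col1a1* at 3864 and 4241 FPKM and *Postn* at 3202 and 2904 FPKM. Of the 8 pericyte markers, 6 were higher and 1 lower in the *Dnmt3a* KO library, and *Rgs5* alone passed 2-fold, at 20.01 FPKM against 2.099 FPKM. The 8 summed to 309 and 197 FPKM, of which *Pdgfrb* held 249 and 162 FPKM. The 6 epicardial and mesothelial markers summed to 16.7 and 22.0 FPKM. The part of these cell types in the difference was not tested.

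Each 2i-MEF genotype is 1 library, so the KO and the derivation cannot be told apart. Against MEFs, which differ in strain, sex and derivation, both 2i-MEF libraries were above all 4 MEF libraries for 4 of 10 members (*Acta2*, *Tagln*, *Myh11* and *Myl9*), where 24.1% of 15069 genes were, and below all 4 for none, where 21.0% were. Without the MEF library labelled *Dnmt3a* KO with DMSO, left out after the values were seen, 6 members were above, with *Cnn1* and *Actg2* added, where 29.9% of 14876 genes were. The mean of the 2i-MEF pair was 4.21 times that of the 4 MEFs for *Myh11*, 1.95 times for *Myl9*, 1.81 times for *Tagln* and 1.69 times for *Acta2*. By comparison, 14 of the 16 matrix genes were above all MEFs in both 2i-MEF libraries, among them the activated fibroblast genes *Postn* and *Fap* (*Fap* at 32.6 and 30.7 FPKM against at most 4.19 FPKM).

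**Figure D3:**
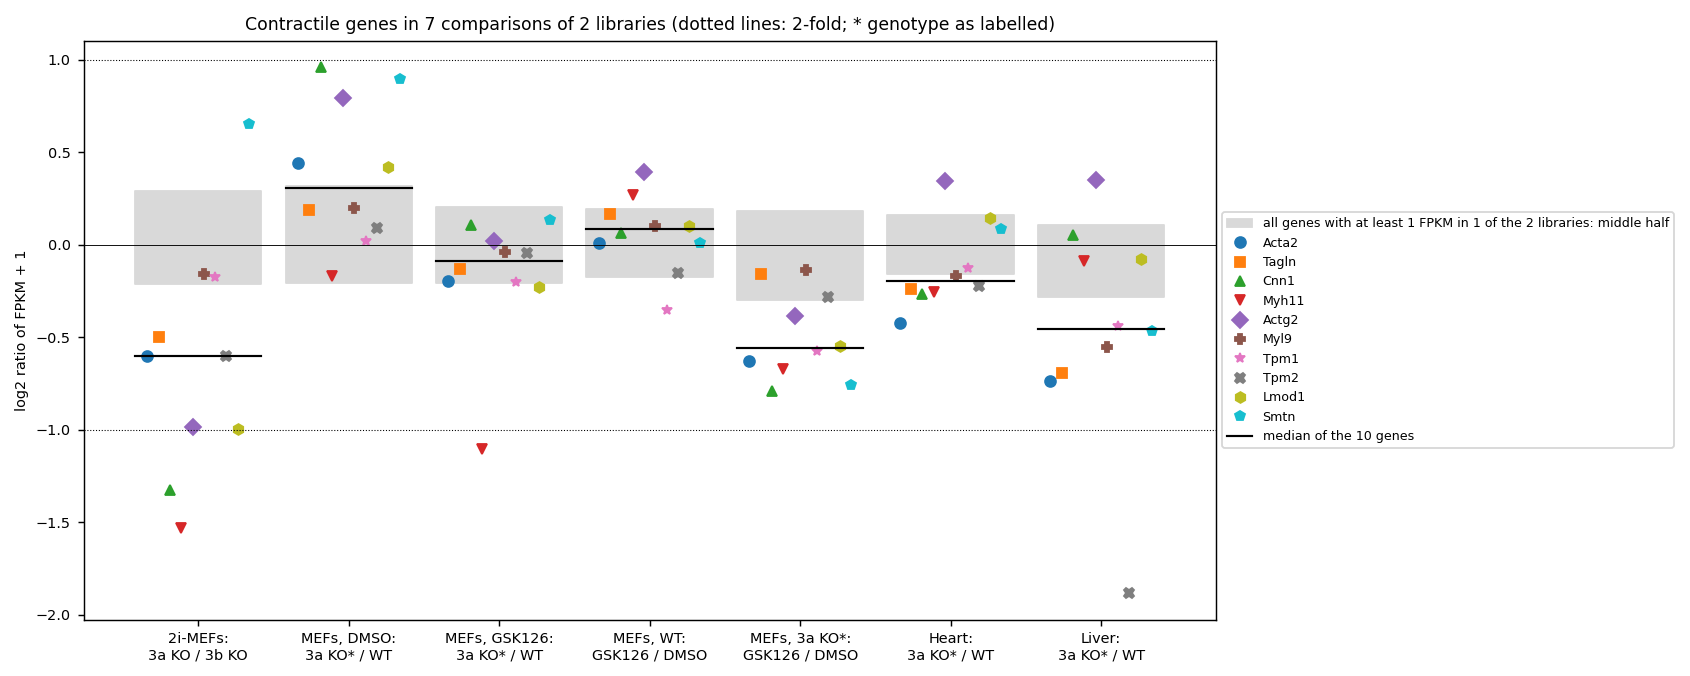
Log2 ratio of FPKM + 1 (vertical axis) of the 10 contractile genes in 7 comparisons of 2 libraries (horizontal axis), 1 symbol per gene, with the median of the 10 (black line), the interquartile range of all genes with at least 1 FPKM (grey) and 2-fold limits (dotted). In 2i-MEFs 9 of 10 symbols lie below 0, in MEFs with DMSO 9 of 10 lie above 0, and *Tpm2* stands apart in liver at -1.88.

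In MEFs with DMSO, 9 of 10 contractile genes were higher in the library labelled *Dnmt3a* KO than in WT, but none reached 2-fold. *Cnn1* came closest, at 128 FPKM against 65.2 FPKM (1.96-fold, log2 ratio of FPKM + 1 of 0.96), followed by *Smtn* at 73.1 against 38.7 FPKM (1.89-fold) and *Actg2* at 137 against 78.7 FPKM (1.75-fold). *Acta2* and *Lmod1* were each 1.36-fold higher, *Tpm2* was 1.07-fold higher, and *Tpm1* had 1563 against 1539 FPKM. *Myh11* had the lower value, 2.27 against 2.68 FPKM. The members' median was 0.31 and that of all genes 0.04. Of 13707 genes, 4.23% were at least 2-fold higher and 2.04% lower.

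With GSK126 the same contrast lay between -0.23 and 0.13 for 9 members and was lower for 1. The median was -0.09 (all genes 0.01). *Cnn1* had 73.5 FPKM under the KO label against 68.2 FPKM for WT, *Smtn* at 42.9 and 39.0 FPKM, and *Actg2* at 105 and 104 FPKM. *Myh11* was the member past 2-fold, at 1.06 against 3.43 FPKM (3.24-fold lower), on between 34 and 142 reads in the lower library. The exact 95% counting interval of its ratio, from the reads of the shortest transcript, was 0.201 to 0.456. Of 13596 genes, 2.88% were at least 2-fold higher and 2.96% lower. None of the other smooth muscle genes (median 0.14), regulators (0.04) or response genes (-0.15) reached 2-fold here, and of the matrix genes 1 was higher, *Ltbp2* (1.34), and 2 lower, *Fap* (-1.16) and *Col3a1*.

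GSK126 was compared with DMSO within each genotype. In WT MEFs no member reached 2-fold with GSK126 against DMSO (all genes: 2.18% of 13503 higher, 1.59% lower), and log2 ratios ran from -0.35 for *Tpm1* to 0.39 for *Actg2*, with a median of 0.08. In MEFs labelled *Dnmt3a* KO all 10 were lower with GSK126, again none by 2-fold (all genes: 2.01% of 13667 higher, 3.25% lower), with log2 ratios from -0.79 for *Cnn1* to -0.14 for *Myl9* and a median of -0.56, beside -0.04 for all genes. *Cnn1* was at 128 FPKM with DMSO and 73.5 FPKM with GSK126 (1.74-fold lower), *Smtn* at 73.1 and 42.9 FPKM (1.70-fold lower) and *Acta2* at 1771 and 1146 FPKM (1.54-fold lower). *Myh11* was 2.15-fold lower in FPKM, at 1.06 against 2.27 FPKM, but under 2-fold on the scale of FPKM + 1. Of the other lists, none of the genes reached 2-fold in WT MEFs among smooth muscle, regulator, response and matrix genes. In those labelled KO, 2 of 20 smooth muscle genes were lower (*Aoc3*, -1.07, and *Mylk*), 1 of 15 response genes (14 of 15 with a log2 ratio below 0), 2 of 16 matrix genes (*Postn*, -1.30, and *Col3a1*) and none of the regulators, among which *Srf* had the lowest log2 ratio (-0.95). Proliferation markers had lower values with GSK126 in both genotypes, 6 of 6 in each, with *Ccnb1* at 12.6 and 5.67 FPKM in WT and 11.9 and 4.495 FPKM in KO.

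MEFs labelled *Dnmt3a* KO with DMSO had the highest value of the 4 MEF libraries for 9 of 10 members (*Myh11* apart), a count made after the values were seen, where 31.7% of 14238 genes had theirs there. The genes of other lists named here and in the marker comparisons, beyond those with the largest difference, were also chosen after their values were seen. Of the other lists, 14 of 20 smooth muscle genes, 11 of 15 response genes, 9 of 16 regulators and 6 of 16 matrix genes had it there. Among the response genes, *Thbs1*, whose product activates latent TGF-beta, was at 1549 FPKM in that library and 640.2, 926 and 1092 FPKM in WT DMSO, WT GSK126 and KO GSK126, and *Fhl2*, a cofactor of SRF target genes, at 143 FPKM and 54.2, 77.2 and 87.2 FPKM. *Srf* itself was at 42.4 FPKM there and 23.1, 26.2 and 21.4 FPKM in the others, and *Myocd* at 1.59 FPKM and 0.0579, 0.130 and 0.565 FPKM. At least 2-fold higher there than in WT with DMSO were 3 of 15 response genes (list median 0.49), 2 regulators (*Myocd* and *Smad7*) and 1 matrix gene (*Ltbp2*, log2 ratio 1.42), and none of these lists had a gene 2-fold lower, with *Tgfb1* (-0.64) lowest of the regulators and *Tgfbi* (-0.96) of the matrix genes. Of the other smooth muscle genes, 4 were at least 2-fold higher there than in WT with DMSO, with *Ppp1r14a* (CPI-17, an inhibitor of myosin phosphatase) at 11.2 and 2.08 FPKM and *Mylk* (myosin light chain kinase) at 15.5 and 6.59 FPKM.

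Markers of other cells differed between these libraries too. The epicardial and mesothelial markers summed to 57.7 and 67.8 FPKM in WT MEFs with DMSO and GSK126 and to 129 and 319 FPKM in those labelled *Dnmt3a* KO. Under the KO label 4 of the 6 were at least 2-fold higher with DMSO and 5 with GSK126, for example *Upk3b* (12.9 and 13.3 FPKM in WT, 40.5 and 88.0 FPKM in KO), and 1 was lower with each, *Tbx18* (4.59 and 4.39 FPKM in WT, 1.72 and 1.49 FPKM in KO). The fibroblast markers summed to 1414 and 1444 FPKM in WT and 1070.2 and 977 FPKM in KO. The part of these cells in the differences was not tested. All 4 comparisons share libraries, and with 1 library each, culture and genotype cannot be told apart.

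**Figure D4:**
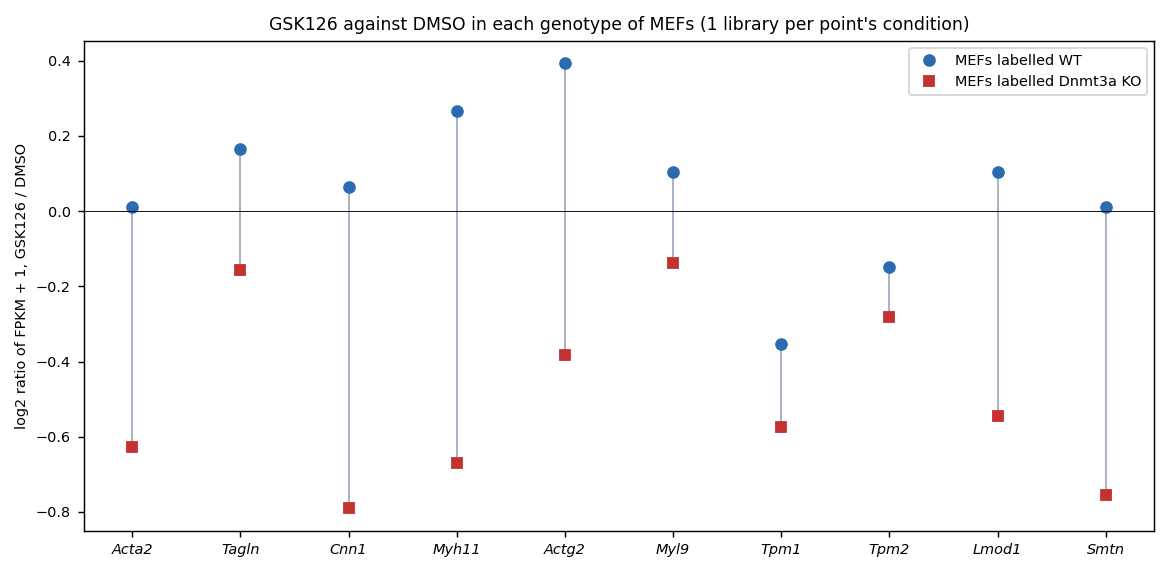
Log2 ratio of FPKM + 1, GSK126 against DMSO (vertical axis), of each contractile gene (horizontal axis) in MEFs labelled WT (blue circles) and labelled *Dnmt3a* KO (red squares), each from 1 library per treatment. Every red square is below 0 and below its blue circle, with the widest gap at *Myh11* (0.27 and -0.67).

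In heart, no contractile gene differed by 2-fold between the embryos labelled *Dnmt3a* KO and WT, where 2.19% of 13841 genes were higher and 1.86% lower. Log2 ratios ran from -0.42 for *Acta2* (876 against 1176 FPKM) to 0.34 for *Actg2* (10.9 against 8.41 FPKM), with 7 of 10 below 0 and a median of -0.20 beside 0.00 for all genes. For the cardiac actin *Actc1*, KO heart had 9220.0 FPKM and WT heart 11034 FPKM. None of the other smooth muscle genes, regulators, response genes or matrix genes reached 2-fold in heart, with list medians between -0.09 and 0.09. Hepatocyte markers were lower in KO heart, 4 of 6 by 2-fold, with *Alb* at 3.04 against 12.7 FPKM, and erythroid markers summed to 15848 against 22564 FPKM.

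In liver, 8 of 10 members were lower in the embryo labelled *Dnmt3a* KO, and *Tpm2* was the 1 past 2-fold, at 18.6 against 71.5 FPKM (3.83-fold lower, log2 ratio -1.88). None was 2-fold higher. Of 13291 genes, 1.38% were higher and 2.30% lower, and the median was -0.45 for the members and -0.08 for all genes. *Acta2* (15.8 against 26.9 FPKM, 1.71-fold lower) and *Tagln* (7.58 against 12.9 FPKM, 1.70-fold lower) followed on the scale of FPKM + 1, and *Lmod1* was 1.82-fold lower in FPKM, on 7 against 13 reads. *Actg2* was higher, at 4.63 against 3.42 FPKM. Of the 10, 7 reached 1 FPKM in a liver library, and *Cnn1*, *Myh11* and *Lmod1* did not.

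Striated muscle markers also differed between the livers. WT liver had 10 of the 16 markers at 1 FPKM or more and a sum of 177.5 FPKM, KO liver 7 of 16 and 46.8 FPKM, and 8 of 16 were at least 2-fold lower and 2 higher in KO. The 2 higher ones were *Myl2* (0.493 FPKM in WT, 4.91 FPKM in KO) and *Tnni3* (0.525 and 2.27 FPKM). *Acta1* (skeletal alpha-actin) had 28.4 FPKM in WT liver against 0.624 FPKM in KO, *Myh3* (embryonic myosin heavy chain) at 9.96 and 0.248 FPKM, and *Tnnc2* (fast skeletal troponin C) at 14.3 and 1.18 FPKM. *Myog*, the muscle-lineage transcription factor myogenin, was at 6.31 and 0.150 FPKM. *Tpm2* is also a skeletal muscle tropomyosin. Of the other smooth muscle genes 1 was at least 2-fold lower in KO liver, *Pdlim3* (-1.04), and of the regulators and response genes none was. Matrix genes were lower in KO liver as well, 16 of 16 with a log2 ratio below 0 and *Col3a1* past 2-fold (119 against 289 FPKM). Fibroblast (8 of 8), pericyte (8 of 8) and epicardial (6 of 6) markers also had lower values in KO liver, and 4 of 6 endothelial markers had higher ones. Hepatocyte markers summed to 17970 FPKM in WT and 10948 FPKM in KO, and erythroid markers to 84080 and 103434 FPKM. The part of muscle, connective tissue or other cells in the liver differences was not tested.

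**Figure D5:**
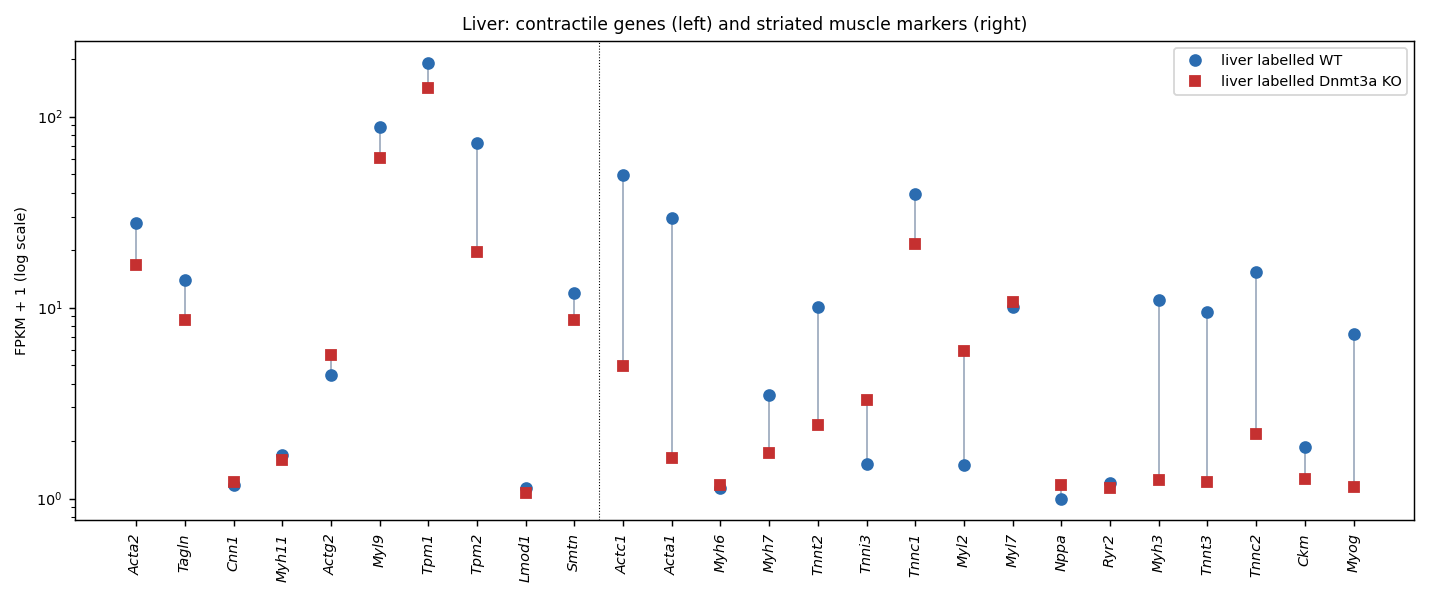
FPKM + 1 (vertical axis, log scale) of the 10 contractile genes (left of the dotted line) and of 16 striated muscle markers (right) in liver labelled WT (blue circles) and *Dnmt3a* KO (red squares), 1 library each. *Tpm2* lies at 71.5 FPKM in WT and 18.6 FPKM in KO, and *Actc1*, *Acta1*, *Myh3*, *Tnnc2* and *Myog* are lower in KO too (*Actc1* at 48.5 and 3.97 FPKM). The markers *Myl2* and *Tnni3* are higher in KO.

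Across the 10 libraries, the contractile genes were mostly correlated. The correlation of log2(FPKM + 1) between members, over 45 pairs, had a median of 0.78 and ran from 0.33 (*Tpm1* and *Lmod1*) to 0.99 (*Actg2* and *Lmod1*). *Acta2* and *Tagln* had 0.98, and *Myl9* and *Tpm1* had 0.98. These values are descriptions over 10 libraries that fall into 3 kinds, fibroblasts, heart and liver, and liver held the lowest value of each member. Over the 6 fibroblast libraries alone the median was 0.52, with 12 of 45 pairs below 0. *Actg2* and *Cnn1* (0.97) and *Tagln* and *Myl9* (0.97) were highest there, and *Myl9* and *Tpm2* (-0.56) lowest. Each of those 12 pairs held *Smtn* or *Tpm2*.

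Each member was also set against the mean profile of the 10, which each of them enters. Pearson's r was highest for *Acta2* (0.996) and *Tagln* (0.993) and lowest for *Myh11* (0.70) and *Tpm1* (0.80). Of the 10437 other genes with at least 10 FPKM in 1 library, the 5 most alike over the 10 libraries were *Slit2* (a secreted guidance factor, r = 0.996), *Yap1* (a mechanosensitive coactivator, 0.995), *Cacna2d1* (a calcium channel subunit, 0.993), *Col4a5* (a basement membrane collagen, 0.992) and *AC122273.2* (0.991), the row antisense to *Tagln*. *Slit2* ran from 0.262 FPKM in KO liver to 129 FPKM in *Dnmt3b* KO 2i-MEFs and *Yap1* from 14.1 to 86.6 FPKM in the same libraries. As many as 807 of these genes had r of at least 0.9, so that the order among the first few rests on small differences.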

How the data were processed

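PolyA RNA was sequenced in 10 libraries, 1 per condition. Per the labels and the study's methods, the authors trimmed reads with cutadapt, aligned them to mm10 with TopHat2 and Bowtie2 and deposited cufflinks FPKM per GENCODE M15 gene in 1 table; the submitters' processing notes name Cufflinks 2.2.1, TopHat2 2.1.0, Bowtie2 2.2.5 and 2.2.8 and cutadapt 1.9.1. All per-sample columns of the table were mapped to samples by name. FPKM depends on the reads of the most abundant genes, so erythroid or cardiac transcripts lower the values of all others.

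Ratios are log2 of FPKM + 1 and understate differences of low genes; a difference means at least 2-fold, beside all genes with at least 1 FPKM in either library. No test was run. Depth was estimated from the steps of low FPKM values, where 1 read is 1 step. Counting intervals (exact, 95%) come from the reads this gives on a gene's shortest transcript and cover counting error only. Python 3.11.15, pandas 2.3.3, scipy 1.17.1 and matplotlib 3.10.9 were used, and the calculations were tested on simulated data. The members, the lists of other genes and the comparisons were chosen with earlier results of these data known. Named were all 10 members, their family paralogs, the targeted genes, the genes of each list with the largest difference either way, markers of other cell types, and the 5 genes most alike in pattern; any further gene was picked with its values in view, and the genes with the largest difference are not named for every list and comparison. As alternatives, the pseudocount was set to 0.1, ratios were shifted by the all-gene median, FPKM was rescaled to a sum of 1000000, the threshold was 1.5-fold, a minimum of 10 FPKM was required, and likeness was measured by Spearman correlation or over fibroblasts only. The 16 methylation samples were not used here. Of the 15 response genes, 1 is counted but not reported by name here.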

Additional observations from a re-analysis of the deposited data

Results flagged for a closer look

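For 5 genes the log2 ratio of GSK126 against DMSO was above 0 in MEFs labelled WT and below 0 in MEFs labelled *Dnmt3a* KO. It was 0.27 and -0.67 for *Myh11* (a difference of -0.94), 0.39 and -0.38 for *Actg2* (-0.78), 0.10 and -0.54 for *Lmod1* (-0.65), 0.17 and -0.16 for *Tagln* (-0.32), and 0.10 and -0.14 for *Myl9* (-0.24). For 3 genes the ratio of the *Dnmt3a* KO label against WT was above 0 with DMSO and below 0 with GSK126. It was 0.44 and -0.20 for *Acta2* (-0.64), 0.42 and -0.23 for *Lmod1* (-0.65), and 0.19 and -0.13 for *Tagln* (-0.32). Only genes with ratios of at least 0.1 in size on both sides are given. Both readings use the same 4 libraries, so the second repeats the first. With 1 library per condition the differences were not tested.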

How the results depend on the processing

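In 2i-MEFs the count of 2 genes past 2-fold was 4 with ratios centred on all genes or FPKM rescaled to a sum of 1000000, 3 with a pseudocount of 0.1, 7 at 1.5-fold (21.4% of all genes) and 1 with a minimum of 10 FPKM. In MEFs with DMSO the count of 0 was 1 (*Cnn1*) after rescaling and 3 at 1.5-fold (18.4% of all genes), and the median of 0.31 was 0.42 with the minimum. With GSK126 the count of 1 was 0 with the minimum, which drops *Myh11*. For GSK126 in MEFs labelled *Dnmt3a* KO the count of 0 was 1 with a pseudocount of 0.1 and 4 at 1.5-fold (16.4% of all genes). In liver the count of 1 was 3 at 1.5-fold (10.9% of all genes), and the median of -0.45 was -0.64 with the minimum, which keeps 4 genes. For heart against liver in WT the median of 3.01 was 3.18 with a pseudocount of 0.1, 3.14 centred, 3.13 rescaled and 4.46 with the minimum (6 genes). In KO the count of 8 was 4 and the median of 3.85 was 5.01 with the minimum (4 genes), 3.96 with a pseudocount of 0.1 and 4.05 rescaled. None of the 5 genes most alike by Pearson correlation was among the 5 by Spearman correlation or over fibroblasts alone (0 each). The other 65 summary values stayed within 1.5 times for a count or 0.1 (log2) for a median. Among these, leaving out the MEF library labelled *Dnmt3a* KO with DMSO, chosen after seeing the data, moved the count of genes above all MEFs from 4 to 6. No median of 0.1 or more in size and no gene past 2-fold changed sign. Of the values of single genes, 222 stayed within 0.1 (log2) and 48 did not. The causes were not tested. No paired analysis was possible because the groups of each comparison hold 1 library each and so share fewer than 2 replicate numbers. Fits that pool both genotypes, such as heart against liver with the embryo as a block, were not run. With 1 library per condition no replicate could be left out. Depth limits *Cnn1*, *Lmod1* and *Myh11* in liver.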
